A study of Homo sapiens with 6 samples.

Results

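The integrin subunits described here are 10 genes, found by symbol among the 13439 genes of an RNA-seq table of Saos-2 cells: the beta subunit genes ITGB1, ITGB3, ITGB5 and ITGB8 and the alpha subunit genes ITGAV, ITGA2, ITGA3, ITGA5, ITGA6 and ITGAE. All 10 were in the table. Saos-2 is an established human osteosarcoma line, and the study is a comparison within this single line. There were 3 libraries of cells given 0.20 µM ailanthone (AIL), a plant quassinoid, for 24 h and 3 of cells given the solvent DMSO for the same time. The labels give this dose as the IC50 of AIL. Both groups were grown in DMEM with fetal bovine serum, streptomycin and penicillin. The labels call the samples biological replicates but do not describe separate cultures, and the spread behind each p-value is that among these 6 samples, which may be technical. The stated purpose was to find pathways altered by AIL, and the title of the study names migration and invasion.

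Integrins are cell surface receptors in which an alpha chain is paired with a beta chain, and they connect the extracellular matrix outside the cell to the actin cytoskeleton inside it. The ligand depends on the pair: ITGA5 with ITGB1 binds fibronectin, ITGAV with its several beta partners binds RGD sequences in fibronectin, vitronectin and latent TGF-beta, ITGA3 and ITGA6 with ITGB1 bind laminins, and ITGA2 with ITGB1 binds collagen. In osteosarcoma and bone cells these receptors are known for attachment to matrix, spreading and migration.

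Values are TMM-normalized CPM as deposited, that is, reads of a gene scaled to a common library total. Differences were tested with limma on log2(CPM + 1) over 11069 genes (mean over the 6 libraries not under 1 CPM), and an adjusted p under 0.05 is a call. The TMM-scaled depth, read from the CPM step of 1 read, was 35910000 to 38050000 reads in AIL libraries and 32540000 to 35830000 reads in DMSO libraries. AIL and DMSO libraries lay apart on the leading principal component (72.4% of variance). Mitochondrially encoded transcripts were kept as a sign of RNA quality. They summed to 3600.5 to 3726 CPM in AIL libraries and to 4205 to 4374 CPM in DMSO libraries. Of these 13 genes 10 were called lower (76.9%, against 25.9% of all tested genes). Both that sum and the depth moved with the treatment, and their part in the results below was not tested. In bulk RNA, a lower share of cells with a transcript and less of it per cell cannot be told apart.

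The cell type was checked against marker genes. Among osteoblast lineage markers, RUNX2 averaged 4.72 ± 0.287 CPM under AIL and 4.66 ± 0.295 CPM under DMSO (SD, n = 3 each), and BGLAP stayed near 0 with means of 0.0833 CPM under AIL and 0.0100 CPM under DMSO. ALPL, SP7, IBSP, COL1A1 and PTH1R were not analysed here. The listed markers of other cell types were low. The 4 leukocyte markers with values summed to 6.63 to 7.57 CPM in AIL libraries and 4.47 to 4.83 CPM in DMSO libraries. Of these, CD68, which is also a lysosomal protein gene, averaged 2.95 ± 0.412 CPM under AIL and 0.763 ± 0.0306 CPM under DMSO, while ITGAL was at 0.03 CPM or less in every library. The single epithelial marker with values, MUC1, and the endothelial markers CDH5 and VWF each averaged under 1 CPM in both groups.

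In the main fit, which did not pair the libraries, 6 of the 10 subunits fell under AIL and 0 rose. All 4 beta subunits were lower, and of the 6 alpha subunits ITGAV and ITGA5 were lower. Over all tested genes, 54.1% were called, 25.9% as lower and 28.2% as higher, so that 6 of 10 is close to the share of all genes called in either direction and above the share called lower. The median log2 difference was -0.36 over the 10 subunits and 0.01 over all tested genes. The groups did not overlap for 7 subunits, all lower under AIL. Over all tested genes the groups did not overlap for 60.1%, with AIL below DMSO for 29.2%. All 10 passed the filter on low values. The alpha subunits that fell, ITGAV and ITGA5, are those of receptors for fibronectin and other RGD ligands. The 4 that were not called are the laminin subunits ITGA3 and ITGA6, the collagen subunit ITGA2 and ITGAE. These calls do not separate receptors by ligand, since ITGB1, the beta partner of ITGA2, ITGA3 and ITGA6, also fell. ITGA3 and ITGA6 were each called lower in 4 of 14 alternative settings. Outside the 10 subunits, the collagen-binding ITGA10 fell as well.

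**Figure D1:**
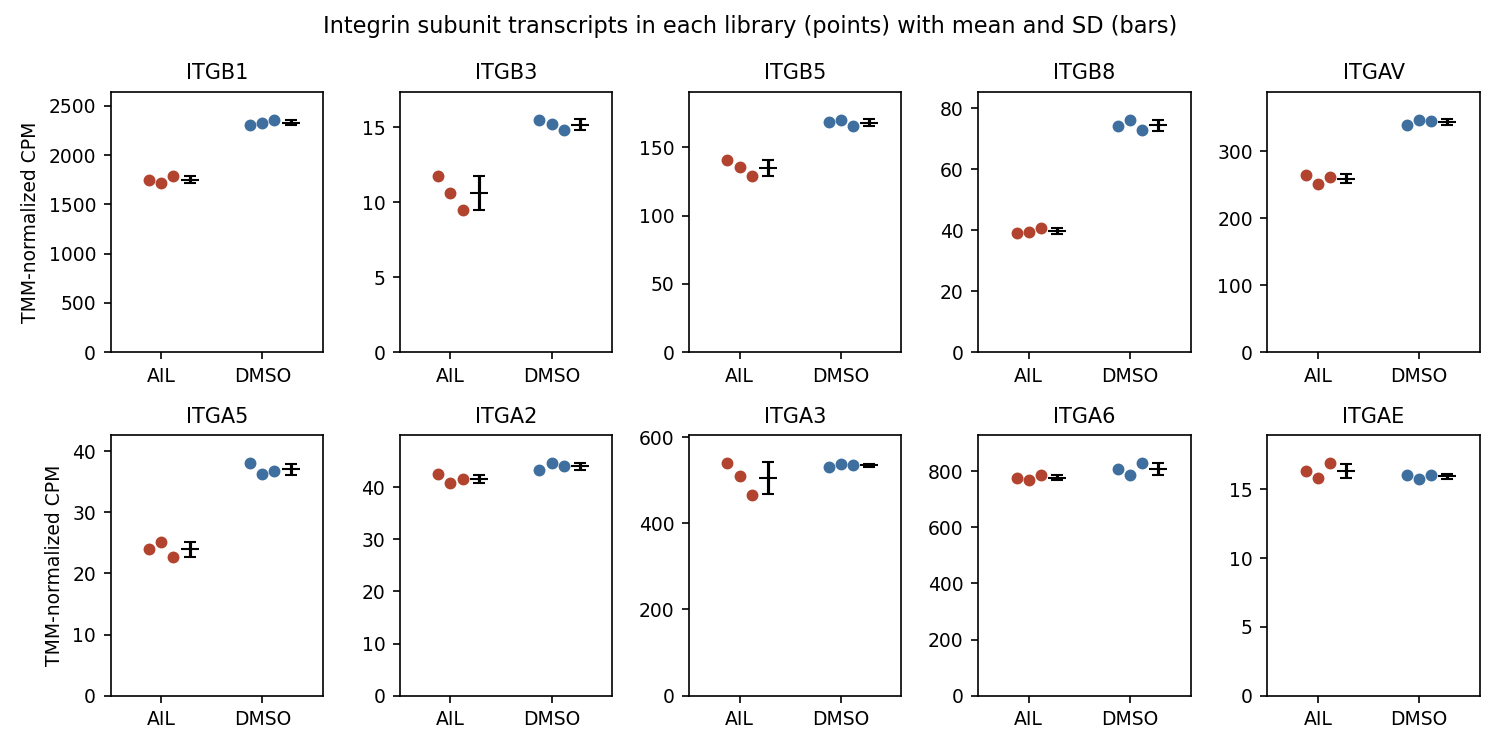
TMM-normalized CPM of each integrin subunit (vertical axis, linear from 0) in the 3 AIL and the 3 DMSO libraries. Points are libraries and bars are the mean and SD. The AIL points lie below the DMSO points for ITGB1, ITGB3, ITGB5, ITGB8, ITGAV, ITGA5 and, by a small margin, ITGA2, and the groups overlap for ITGA3, ITGA6 and ITGAE.

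ITGB8 showed the largest fall among the subunits. ITGB8 encodes a beta chain that pairs with ITGAV and is known for binding and activating latent TGF-beta. Its transcript stood at 39.1, 39.5 and 40.8 CPM in AIL libraries, against 74.3, 76.2 and 72.7 CPM in DMSO libraries. Each AIL library was well under every DMSO library, and the spread within each group was small beside the gap. ITGB8 fell by 46.5% in mean CPM, and its log2 difference was -0.89 (standard error, SE, 0.0349; limma adjusted p = 4.31e-12). Ordered by log2 difference, it was the 10th lowest of the 11069 genes tested. The lowest value of ITGB8 stands for about 1430 reads.

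ITGB1 is the common partner of ITGA2, ITGA3, ITGA5 and ITGA6 and one of the partners of ITGAV. Its transcript stood at 1749, 1717 and 1783 CPM in AIL libraries, against 2300.1, 2329 and 2357 CPM in DMSO libraries. The groups were far apart, and ITGB1 fell by 24.9% (log2 difference -0.41, SE 0.0255, limma adjusted p = 8.22e-10). With this abundance it ranked 15th of all genes in the table by mean CPM. Of the 50-base words in its annotated transcripts, 10.0% were found in a second gene as well, where the authors' counting could have placed such reads.

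ITGAV, the alpha chain that ITGB3, ITGB5 and ITGB8 share, fell by nearly the same proportion as ITGB1. It stood at 265, 252 and 261 CPM in AIL libraries, against 339.6, 347 and 345 CPM in DMSO libraries. These groups did not overlap either, and the log2 difference was -0.41 (SE 0.026, limma adjusted p = 1.15e-09).

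The remaining ITGAV partners were lower to unequal degrees. ITGB5, a vitronectin receptor chain, stood at 141, 135 and 129 CPM in AIL libraries and 169, 170.2 and 165 CPM in DMSO libraries. It fell by 19.6% (log2 difference -0.31, SE 0.0315, limma adjusted p = 2.54e-07), the smallest change among the 6 called subunits. ITGB3, the other vitronectin receptor chain and a subunit known from osteoclasts and platelets, stood at 11.8, 10.6 and 9.5 CPM in AIL libraries and 15.5, 15.2 and 14.8 CPM in DMSO libraries. The AIL libraries were all below the DMSO libraries but spread more widely, and ITGB3 fell by 29.97% (log2 difference -0.48, SE 0.0673, limma adjusted p = 1.20e-05). It was the subunit with the fewest reads, about 341 to 531 per library. For ITGB3 this share of 50-base words was 51.1%, so its level is uncertain.

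ITGA5, the fibronectin receptor alpha chain, had the largest fall among the alpha subunits. It stood at 24.0, 25.2 and 22.6 CPM in AIL libraries, against 38.0, 36.2 and 36.8 CPM in DMSO libraries. The groups did not overlap, and ITGA5 fell by 35.3% (log2 difference -0.61, SE 0.0459, limma adjusted p = 8.69e-09), the 55th lowest difference of the genes tested.

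The laminin receptor subunits differed little between treatments. ITGA6 stood at 778, 768 and 787.5 CPM in AIL libraries and 809, 787 and 828 CPM in DMSO libraries, so that the groups met at their edge. Its log2 difference was -0.06 (unadjusted 95% interval -0.11 to -0.0014, limma adjusted p = 0.0771). ITGA3 stood at 539, 509 and 466 CPM in AIL libraries and 530.45, 538 and 535 CPM in DMSO libraries. The DMSO libraries were tightly grouped, while the AIL libraries ran from below to above them. The log2 difference of ITGA3 was -0.09 (unadjusted 95% interval -0.16 to -0.0061, limma adjusted p = 0.0643). Neither was called, but both calls are near the threshold and depend on the fit. In the blocked fit, which pairs libraries by replicate number, ITGA6 and ITGA3 were called lower (limma adjusted p = 0.0149 and 0.0217). With quantile normalization the log2 difference of ITGA6 was -0.19 (limma adjusted p = 6.72e-06) and that of ITGA3 was -0.11 (limma adjusted p = 0.0137), and median-of-ratios rescaling also called both (limma adjusted p = 0.0391 and 0.0265). ITGA6 was also called without AIL replicate 3 (limma adjusted p = 0.0398). For ITGA3, single AIL libraries set the size: the log2 difference was -0.13 without AIL replicate 1 (limma adjusted p = 0.00253) and -0.03 without AIL replicate 3 (limma adjusted p = 0.368).

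ITGA2, the collagen receptor alpha chain, stood at 42.45, 40.8 and 41.55 CPM in AIL libraries and 43.4, 44.6 and 44.0 CPM in DMSO libraries. The AIL libraries were all lower, by a margin of about the spread within a group, and the log2 difference of -0.08 was not called (unadjusted 95% interval -0.15 to -0.0013, limma adjusted p = 0.0799). Quantile normalization brought ITGA2 past the threshold (limma adjusted p = 0.0452). ITGAE encodes the alpha chain that pairs with ITGB7 on mucosal T cells and binds E-cadherin. It stood at 16.3, 15.8 and 16.9 CPM in AIL libraries and 16.1, 15.7 and 16.02 CPM in DMSO libraries, with overlapping groups and a log2 difference of 0.03 (95% interval -0.07 to 0.14, limma adjusted p = 0.593). Its partner ITGB7 and the T cell markers CD3E and CD3D were not analysed here. The T cell marker CD8A stood at 0.34, 0.69 and 0.56 CPM in AIL libraries and 0.25, 0.24 and 0.11 CPM in DMSO libraries, and its part in the level of ITGAE was not tested.

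**Figure D2:**
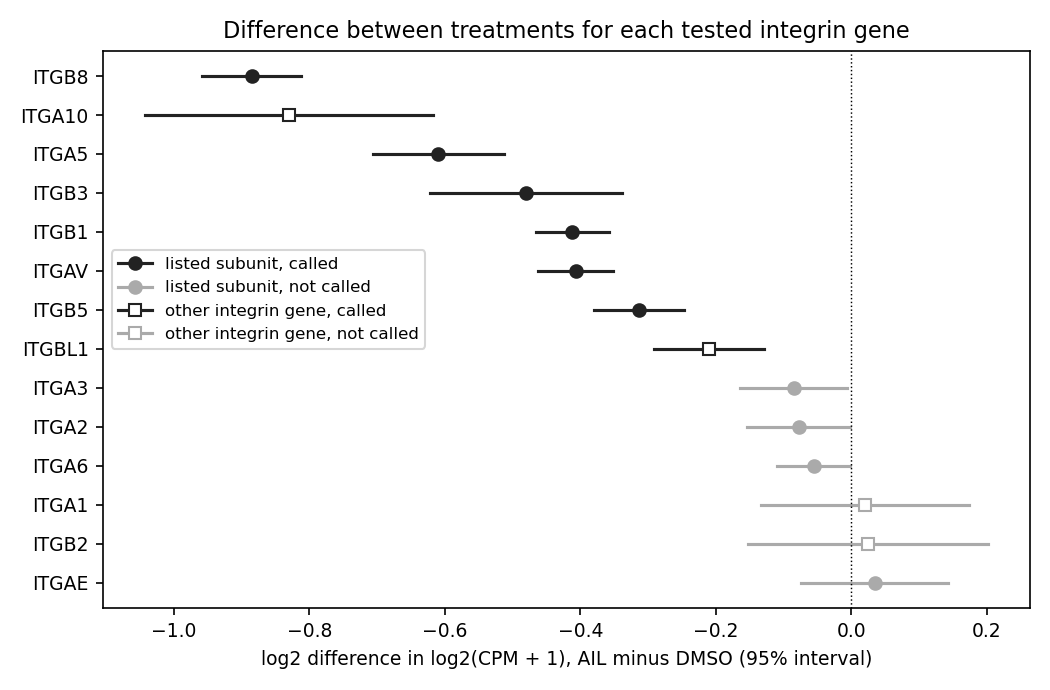
Log2 difference in log2(CPM + 1), AIL minus DMSO, with its unadjusted 95% interval (horizontal axis) for the 10 listed subunits (circles) and the 4 other tested integrin genes (squares); dark symbols are calls. The called genes run from ITGB8 at -0.89 to ITGBL1 at -0.21, and the 6 uncalled genes lie between -0.09 and 0.03.

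Among the other integrin genes fixed for comparison, 11 of 17 had values and 4 passed the filter, of which 2 fell and 0 rose. Over all tested genes, 54.1% were called and 25.9% were called lower. ITGA10, a collagen-binding partner of ITGB1 known from cartilage, stood at 1.79, 1.33 and 1.36 CPM in AIL libraries, against 3.2, 3.84 and 3.24 CPM in DMSO libraries. These levels are low, the groups did not overlap, and the log2 difference was -0.83 (SE 0.101, limma adjusted p = 2.38e-06). ITGBL1 encodes a secreted protein that resembles the EGF-like part of beta subunits and forms no receptor. It averaged 34.5 ± 0.872 CPM under AIL and 40.1 ± 0.58 CPM under DMSO (SD, n = 3 each; log2 difference -0.21, limma adjusted p = 1.91e-04). ITGA1, a collagen receptor chain, averaged 5.69 ± 0.270 CPM under AIL and 5.59 ± 0.244 CPM under DMSO. ITGB2, the leukocyte beta chain, averaged 3.71 ± 0.337 CPM under AIL and 3.63 ± 0.18 CPM under DMSO, and neither gene was called. ITGA2B, ITGA7, ITGA11, ITGAL, ITGAM, ITGB4 and ITGB6 averaged under 1 CPM and were not tested, with no library above 0.58 CPM.

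The sequences before the start sites are shown because ITGB1, ITGAV and ITGB5 fell together (ITGAV pairs with either beta chain), and because ITGB8 and ITGA5 changed most. RefSeq windows on GRCh38.p14 reach 250 bases before a start site, and the window nearest to the principal transcript of the gene was taken where there were several. They were found for 8 of the 10 subunits. For ITGB8 and ITGA5 only the 52 and 56 bases before the first GENCODE v29 exon are given. Sequences run 5′ to 3′ in the direction of the gene, and capitals mark matches on either strand to the GC box GGGCGG, to CCAAT or to TGACG.
ITGB1 chr10:32958231-32958480 (- strand): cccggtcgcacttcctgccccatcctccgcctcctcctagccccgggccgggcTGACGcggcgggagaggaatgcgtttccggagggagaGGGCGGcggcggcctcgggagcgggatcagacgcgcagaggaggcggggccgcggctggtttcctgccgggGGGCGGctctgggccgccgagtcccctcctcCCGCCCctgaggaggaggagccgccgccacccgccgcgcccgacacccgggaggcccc
ITGAV chr2:186589806-186590055 (+ strand): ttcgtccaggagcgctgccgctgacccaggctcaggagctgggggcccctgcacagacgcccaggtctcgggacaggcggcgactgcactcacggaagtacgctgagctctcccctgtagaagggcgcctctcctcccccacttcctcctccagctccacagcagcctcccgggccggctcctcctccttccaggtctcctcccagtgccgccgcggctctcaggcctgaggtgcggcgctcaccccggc
ITGB5 chr3:124887366-124887615 (- strand): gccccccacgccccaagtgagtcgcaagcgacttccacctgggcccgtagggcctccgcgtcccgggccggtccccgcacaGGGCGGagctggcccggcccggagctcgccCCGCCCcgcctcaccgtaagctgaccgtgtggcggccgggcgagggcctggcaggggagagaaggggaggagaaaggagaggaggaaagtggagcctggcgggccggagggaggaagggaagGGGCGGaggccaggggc
ITGB8 chr7:20330650-20330701 (+ strand): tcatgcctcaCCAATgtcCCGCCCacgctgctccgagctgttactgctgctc
ITGA5 chr12:54419461-54419516 (- strand): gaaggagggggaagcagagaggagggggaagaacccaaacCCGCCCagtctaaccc
The marked matches do not overlap each other. GGGCGG was found in the 250-base window of 6 of the 8 subunits, in 4 of the 5 called ones and in 2 of the 3 others, against 42.6% of all 35116 windows of this length in the table. The ITGAV window held none of the motifs searched. CCAAT was found in the ITGB8 window alone of the 8, against 32% of all windows. TGACG was found in those of ITGB1 and ITGA6, against 21.2% of all windows. TGANTCA (the AP-1 site), CACGTG and TATAAA were in none of the 8 windows, and in 6.57, 6.34 and 10.7% of all windows. The windows counted include GENCODE v29 exon bases, 198 for ITGB8, 194 for ITGA5, 84 for ITGA6, 55 for ITGAE and 26 for ITGA2. The TGACG match of ITGA6 lies past the start of its first such exon. A match is a match of letters in the window and was not tested as a site.

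Because receptors need both chains, the ratio of subunits that can pair was compared between treatments. In total, 9 ratios were compared, with ITGB1 and ITGAV taken both ways round, with a two-sided exact permutation test over the 6 libraries, which cannot give a p below 0.1, so that no ratio could pass the threshold. Ratios are log2 differences between the log2(CPM + 1) values of the paired genes. The change of a ratio thus restates the log2 differences of its genes given above. ITGB1 over ITGAV was 2.75 ± 0.0268 under AIL and 2.76 ± 0.0132 under DMSO (SD, n = 3 each), and the groups overlapped (exact permutation p = 0.8, adjusted p = 0.8). ITGB8 over ITGAV was -2.73, -2.64 and -2.65 in AIL libraries and -2.18, -2.17 and -2.23 in DMSO libraries, a change of -0.48 without overlap (exact permutation p = 0.1, adjusted p = 0.18). ITGB3 over ITGAV changed by -0.07 and ITGB5 over ITGAV by 0.09, both with overlapping groups (exact permutation p = 0.5 and 0.2, adjusted p = 0.643 and 0.3). Among the partners of ITGAV, ITGB8 is thus the one whose ratio did not overlap.

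Against ITGB1, the uncalled partners ITGA2, ITGA3 and ITGA6 were higher in proportion under AIL. ITGA6 over ITGB1 was -1.17 ± 0.00854 under AIL and -1.53 ± 0.0337 under DMSO, a change of 0.36. ITGA2 and ITGA3 over ITGB1 changed by 0.33 and 0.33, and ITGA5 over ITGB1 changed the other way, by -0.20. The groups did not overlap in any of these 4 ratios, and each gave the smallest p possible (exact permutation p = 0.1, adjusted p = 0.18). All 4 share ITGB1, which fell, so they are not independent of each other.

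**Figure D3:**
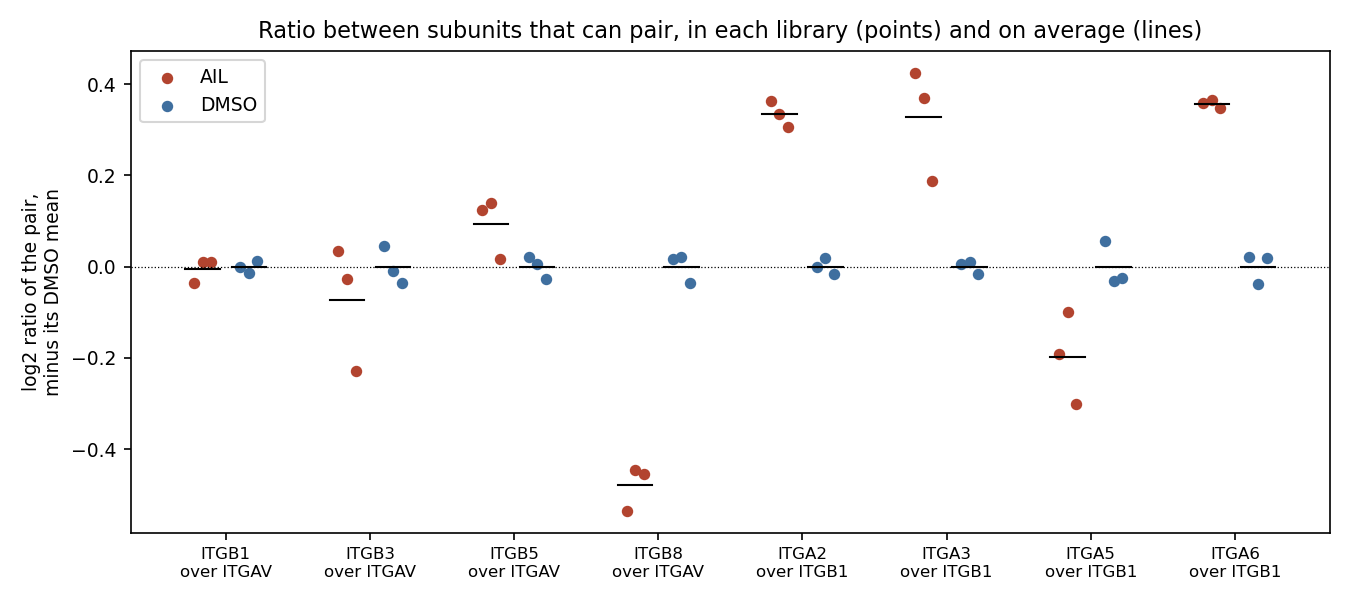
Log2 ratio between subunits that can pair in each library, minus the mean ratio of the DMSO libraries (vertical axis), with AIL libraries left of DMSO libraries in each pair; points are libraries and lines are means. ITGB1 over ITGAV lies near 0 in both groups, ITGB8 over ITGAV lies 0.48 lower on average under AIL, and ITGA2, ITGA3 and ITGA6 over ITGB1 lie above the DMSO libraries in every AIL library.

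Levels of different subunits were compared per kilobase of the principal GENCODE v29 transcript. These lengths are approximate, since the annotation behind the deposited values is not given in the sources used here. ITGB1 was the most abundant per length, at 462 ± 8.67 CPM per kb under AIL and 615 ± 7.49 CPM per kb under DMSO (SD, n = 3 each). ITGA6 followed at 138 ± 1.78 CPM per kb under AIL and 144 ± 3.72 CPM per kb under DMSO. ITGA3, ITGAV and ITGB5 came next in both groups, at 103 ± 7.53, 36.9 ± 0.946 and 30.9 ± 1.35 CPM per kb under AIL and 109 ± 0.791, 48.9 ± 0.544 and 38.4 ± 0.564 CPM per kb under DMSO.

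The other 5 subunits were at 2.66 to 5.39 CPM per kb on average under AIL and 3.8 to 8.5 CPM per kb under DMSO, with ITGB3 the lowest in both. Under AIL, ITGA5 (5.39 ± 0.284 CPM per kb) and ITGA2 (5.29 ± 0.104 CPM per kb) were within their spread of each other. Under DMSO it was ITGB8 (8.5 ± 0.197 CPM per kb) and ITGA5 (8.33 ± 0.207 CPM per kb) that did not differ beyond their spread. ITGB8 thus stood above ITGA2 per length under DMSO and below it under AIL. With the median length of the coding transcripts in place of the principal one, ITGB8 (6.54 ± 0.15 under AIL and 12.2 ± 0.283 CPM per kb under DMSO) stood above ITGA2 in both groups. It then also stood above ITGA5 (8.33 ± 0.207 CPM per kb) under DMSO. The lowest subunit under DMSO was then ITGAE (4.13 ± 0.0505 CPM per kb) and not ITGB3 (5.36 ± 0.119 CPM per kb). The order of these 5 subunits thus depends on the transcript taken.

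Summed over the chains per length, the beta subunits reached 500.5 ± 7.93 CPM per kb under AIL and 666 ± 6.99 CPM per kb under DMSO. The alpha subunits reached 293 ± 7.17 CPM per kb under AIL and 320.1 ± 3.42 CPM per kb under DMSO. The share of ITGB1 in the beta sum was 92.4 ± 0.369% under AIL and 92.4 ± 0.18% under DMSO, while that of ITGB8 was 0.909 ± 0.0166% under AIL and 1.28 ± 0.0363% under DMSO. In the alpha sum, ITGAV held 12.6 ± 0.328% under AIL and 15.3 ± 0.241% under DMSO, and ITGA6 held 47.2 ± 1.45% under AIL and 44.9 ± 0.723% under DMSO. With the median length of the coding transcripts, ITGAV held 9.63 ± 0.218% under AIL and 11.8 ± 0.218% under DMSO. ITGA6 then held 56.3 ± 1.48% under AIL and 54.2 ± 0.728% under DMSO. The alpha sum was then 390 ± 7.92 CPM per kb under AIL and 421 ± 5.5 CPM per kb under DMSO. The sizes of the sums and shares thus depend on the transcript taken. The shares are descriptions and were not tested.

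The genes most like ITGB8 and ITGB1 were taken as the 3 with the smallest Euclidean distance over the 6 libraries, computed on log2(CPM + 1) minus the DMSO mean. For ITGB8 they were the fatty acid desaturase gene SCD (distance 0.0875), the site-1 protease gene MBTPS1 (0.0968) and the protein folding gene PDIA4 (0.106), with log2 differences of -0.89, -0.91 and -0.88. For ITGB1 they were the ubiquitin ligase gene G2E3 (0.0182), SH3BGRL (0.0423) and the subunit ITGAV (0.0432), with log2 differences of -0.41, -0.42 and -0.41. These distances describe the 6 libraries and mainly follow the size of the treatment difference.

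On the outer side of the receptors, 25 of 41 listed ligand genes were tested. Of these 12 fell and 5 rose (68% called, against 54.1% of all tested genes), and their median log2 difference was -0.15. FN1 encodes fibronectin, the ligand of ITGA5 with ITGB1, and averaged 1855 ± 26.6 CPM under AIL and 2504 ± 68.1 CPM under DMSO (SD, n = 3 each; log2 difference -0.43, limma adjusted p = 9.16e-10). The fibrillar collagen genes COL3A1 and COL5A2 were lower too, with log2 differences of -1.07 and -0.53. COL3A1 was low in both groups, at 2.86 ± 0.13 CPM under AIL and 7.09 ± 0.0361 CPM under DMSO. ICAM1, a ligand of leukocyte integrins, fell by 0.56 on the log2 scale. The 5 ligand genes that rose were the laminin chain genes LAMB1 (log2 difference 0.21, limma adjusted p = 1.45e-05) and LAMA1 (0.52, limma adjusted p = 2.13e-04), the fibrillin gene FBN1 (0.23) and the collagen VI genes COL6A2 (0.29) and COL6A1 (0.39). The laminin chains did not move one way: LAMB3 fell (log2 difference -0.15, limma adjusted p = 0.00617), as did LAMA5 (-0.18, limma adjusted p = 0.0143), and LAMB2, LAMC1 and LAMA3 were not called. LAMA1 was low in both groups, at 6.33 ± 0.48 CPM under AIL and 4.15 ± 0.761 CPM under DMSO.

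On the inner side, integrin tails are linked to actin by talin, kindlin and vinculin, and signal through focal adhesion kinase and paxillin. Of the 41 genes listed for this complex 37 were tested, and 12 rose and 12 fell. Thus 64.9% were called, against 54.1% of all tested genes, and the median log2 difference was -0.04. FLNA, which encodes the actin crosslinker filamin A that binds beta tails, averaged 749 ± 49.9 CPM under AIL and 537 ± 7.93 CPM under DMSO (log2 difference 0.48, limma adjusted p = 8.69e-09). PARVA and ZYX, which encode the actin-linked adaptor parvin and the LIM protein zyxin, rose by 0.33 and 0.32 on the log2 scale, and the adaptor gene CRK by 0.19. PTK2, which encodes focal adhesion kinase, fell by 0.23 on the log2 scale (limma adjusted p = 4.05e-07), and its binding partner paxillin (PXN) fell by 0.25. TES, a LIM protein gene of focal adhesions, fell by 0.34, and FERMT2, which encodes a kindlin needed for integrin activation, fell by 0.20.

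Of 32 listed genes for membrane partners, processing and trafficking, 28 were tested, and 11 fell and 5 rose. Thus 57.1% were called, against 54.1% of all tested genes, and the median log2 difference was -0.07. CALR, the endoplasmic reticulum chaperone gene, averaged 609 ± 5.65 CPM under AIL and 928 ± 9.41 CPM under DMSO (log2 difference -0.61, limma adjusted p = 4.21e-12). CD9, a tetraspanin gene, fell by 0.54 on the log2 scale, the caveolin gene CAV1 by 0.48, and SDC4, a syndecan gene of focal adhesions, by 0.40. SNX17 encodes a sorting nexin that binds beta tails and returns integrins to the surface, and it rose by 0.34 on the log2 scale (limma adjusted p = 5.09e-07). BSG, CD63 and SLC3A2, whose product is the CD98 heavy chain that associates with ITGB1, rose by 0.27, 0.22 and 0.18.

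**Figure D4:**
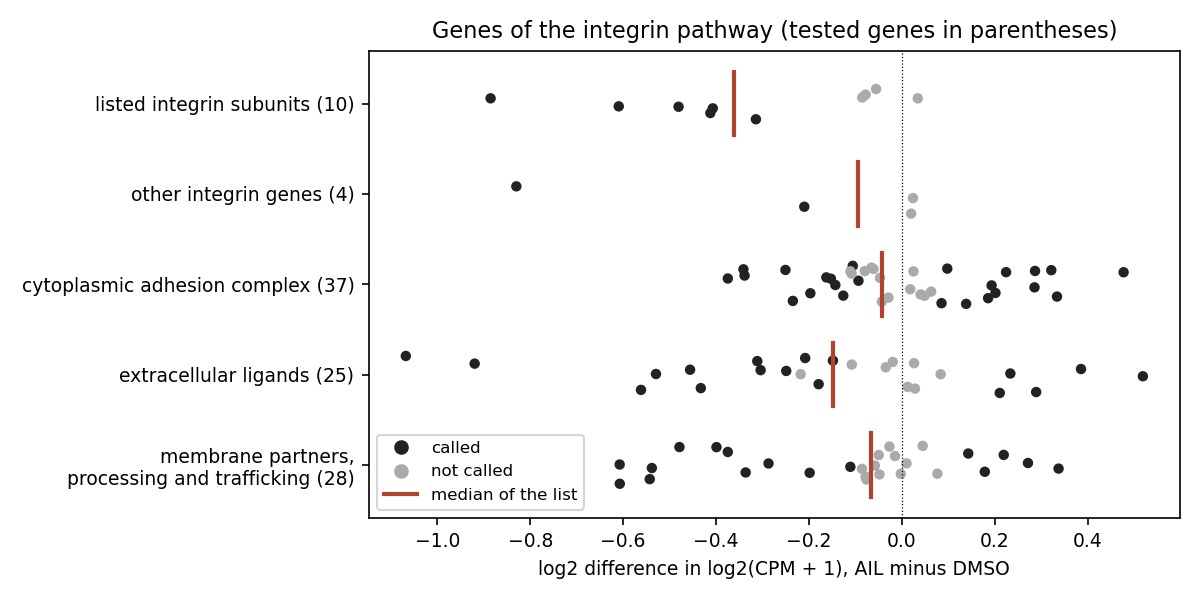
Log2 difference in log2(CPM + 1), AIL minus DMSO (horizontal axis), for each tested gene of the listed integrin subunits and of 4 lists of the integrin pathway; dark points are calls and vertical bars are list medians. The median is -0.36 for the subunits, -0.09 for other integrin genes, -0.04 for the cytoplasmic complex, -0.15 for ligands and -0.07 for membrane partners, and the cytoplasmic complex has calls on both sides of 0.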

How the data were processed

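RNA-seq libraries of Saos-2 cells, 3 treated with AIL and 3 with DMSO, were grouped by their titles. The authors deposited a table of TMM-normalized CPM with 2 decimals, per the file name; RSEM and edgeR 3.8.5 are named without a role, per the submitters' processing notes. Neither the aligner nor the build, annotation or strand setting is given in the sources used here. Under TMM scaling, a change shared by most transcripts would go unseen. Low values lay near multiples of a step worth 1 read, and read numbers given here are estimates, CPM divided by that step. With 2 decimals, whole reads could not be recovered exactly enough for a count test, and none was run.

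Differences (AIL minus DMSO) were tested on log2(CPM + 1) with limma 3.58.1 (R 4.3.3), two-sided, with an intensity trend and no covariates, over 11069 genes whose mean was not under 1 CPM. Benjamini-Hochberg adjustment ran over all of them, with a threshold of 0.05. Log2 differences on this scale understate changes of low genes; percent changes are of mean CPM. The fit was tested on simulated data. The members and gene lists were chosen with earlier results of these data known. Named genes were the 10 subunits, the other integrin genes, up to 4 calls with the smallest p in each direction of each other list, and the genes most like ITGB8 and ITGB1. Any other gene was chosen after its values were seen. Shared 50-base words and lengths were taken from GENCODE v29 transcripts.

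The main fit did not pair the samples, and a replicate block that pairs them by number was run as an alternative. That block called 8 subunits lower in place of 6. The pairing by number rests on deviations from group means. They correlated at 0.159, 0.133 and 0.129 between the AIL and DMSO libraries of replicates 1, 2 and 3. Between AIL and DMSO libraries of unlike number they correlated at -0.179 to 0.021. This pairing comes from the data, not from the labels. Alternatives were other pseudocounts, filters and scalings, no intensity trend, a replicate block and leaving out each library. No 2 libraries held identical values.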

Additional observations from a re-analysis of the deposited data

How the results depend on the processing

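Over the 14 alternatives, ITGB1, ITGB3, ITGB5, ITGB8, ITGAV and ITGA5 kept their direction and their call, with log2 differences of -0.90 to -0.83 for ITGB8 and -0.34 to -0.28 for ITGB5, and ITGAE was never called. The number of subunits called lower was 6 to 7 when single libraries were left out, 8 with the replicate block or with median-of-ratios rescaling and 9 with quantile normalization, and it was 0 for higher throughout. The replicate block, which pairs libraries by number, changed the calls of ITGA3 and ITGA6 and of no other subunit, and gave 6468 called genes in place of 5991. Of the other integrin genes, 1 in place of 2 was lower with a mean of at least 5 CPM, since ITGA10 is then not tested. The uncalled ITGB2 and ITGA1 turned to -0.0090 and -0.016 with quantile normalization, and ranged from -0.034 to 0.059 and from -0.0091 to 0.0501 when single libraries were left out. The ratio of ITGB1 over ITGAV ranged from -0.013 to 0.0102 when single libraries were left out. That of ITGB3 over ITGAV was 0.031 with a pseudocount of 5 and -0.13 to 0.0034 when single libraries were left out; the cause was not tested. The other 6 ratios kept their direction under these settings. Among 28 other named genes, no call was lost where the gene was tested; ITGA10 and COL3A1 were not tested under the 5 CPM filter. The genes most like ITGB8 and ITGB1, other than ITGAV, were not refitted. ITGB3, with about 341 to 531 reads per library, is the subunit whose value depth limits most.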

Other observations

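Genes whose symbols contain the name of an integrin need not encode a receptor chain, and those in the table were looked at after their values were seen. ITGB3BP, which encodes the kinetochore protein CENP-R, stood at 38.9, 37.4 and 39.6 CPM in AIL libraries, against 35.2, 33.7 and 36.1 CPM in DMSO libraries (log2 difference 0.14, SE 0.041, limma adjusted p = 0.00857). The groups did not overlap, and the gene was higher under AIL while ITGB3 was lower. ITGB1BP1, which encodes the ITGB1 tail-binding protein ICAP-1, averaged 65.2 ± 1.65 CPM under AIL and 69.6 ± 0.778 CPM under DMSO (SD, n = 3 each; log2 difference -0.09, limma adjusted p = 0.0216). ITGB1BP2, which encodes melusin, a muscle protein that binds the same tail, averaged under 1 CPM in both groups and was not tested.

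FURIN, a proprotein convertase gene of the processing list, was also chosen after its values were seen. Its product cleaves several alpha chains during maturation, among them those of ITGAV, ITGA3, ITGA5 and ITGA6. FURIN stood at 33.1, 32.2 and 28.8 CPM in AIL libraries, against 46.15, 45.98 and 45.54 CPM in DMSO libraries, and the log2 difference was -0.54 (SE 0.0466, limma adjusted p = 4.48e-08). PCSK6, another convertase gene of this list, averaged 22.9 ± 0.989 CPM under AIL and 22.1 ± 0.254 CPM under DMSO. It was not called (log2 difference 0.05, limma adjusted p = 0.443), and cleavage of the alpha chains was not measured.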
